A study of Sus scrofa with 15 samples.

Results

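The BCL2 family genes of the pig oocyte were followed from the germinal vesicle stage to the end of *in vitro* maturation. The set is defined by gene symbol and holds 10 of the 22516 genes in the deposited gene table: the prosurvival genes *BCL2*, *BCL2L1*, *BCL2L10* and *MCL1*, the effectors *BAX*, *BAK1* and *BOK*, and the BH3-only genes *BCL2L11*, *BID* and *BAD*. All 10 were listed in the table and had a count in at least 1 library, and 7 passed the filter on low counts. *BAX*, *BAK1* and *BOK* did not pass it.

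RNA was sequenced from 15 pools of sow oocytes, 5 for each of 3 groups. GV oocytes, with an intact germinal vesicle and no first polar body, were stripped of their cumulus cells fresh from the ovary and were not cultured. MII and ‘damaged’ oocytes had both spent 44 h in maturation culture within their cumulus oocyte complexes and were separated only by the microscope: a first polar body was seen in MII oocytes and was not seen in ‘damaged’ oocytes. The ‘damaged’ group is thus defined by the missing polar body and not by a test of cell death, and GV oocytes differed from both other groups in stage as well as in culture, which cannot be told apart here. The study's methods describe 5 independent collections, and each library is a pool, so that values of single oocytes are not given.

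The BCL2 family decides whether the outer membrane of the mitochondria stays closed. Prosurvival members bind and hold back the effectors, which otherwise form pores through which cytochrome c leaves and caspases are switched on. BH3-only members respond to stress signals and either occupy the prosurvival proteins or activate the effectors. *BCL2L10* is known in mammals for its high expression in the oocyte.

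Total estimated counts lay between 12 and 23.6 M in 14 libraries and came to 6.40 M in GV replicate 3, which was left out of the tests as the study left out its shallowest GV library. Levels are given as TPM, which corrects for transcript length, wherever genes are compared with each other. Between groups, CPM scaled by TMM factors was used, which correct the size of each library for differences in composition. These factors were 1.35 to 1.73 in GV and 0.794 to 0.922 in the other libraries, so the choice of scaling bears on every difference from GV. Between MII and GV, the log2 fold changes of the 13225 genes tested had a median of -0.17 with TMM factors and of -1.09 on plain library sizes, and between ‘damaged’ and GV the medians were -0.14 and -1.01. Log2 fold changes of the family are therefore also given relative to this median. A gene passed the test when limma-voom gave an FDR (Benjamini-Hochberg adjusted p over all genes tested) under 0.01, and it was a DEG when its absolute log2 fold change was also over 2. In an oocyte pool, less RNA and a smaller share of RNA caught by the oligo(dT)-primed kit cannot be told apart.

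The labelled cell type was checked with marker genes. All 14 oocyte markers with a known symbol passed the filter, and their summed TPM was 16873 to 22025 in GV, 4292 to 6637 in MII and 4775 to 6071 in ‘damaged’ oocytes. The summed TPM of 15 cumulus and granulosa cell markers was 84.2 to 101 in GV, 57.8 to 88.9 in MII and 73.8 to 84.0 in ‘damaged’ oocytes, and *AMH* was at 0 in every MII library. The summed TPM of 5 blood cell markers was 3.82 to 8.03 in GV, 0.956 to 1.21 in MII and 1.01 to 1.77 in ‘damaged’ oocytes, with *CD68* at 0 in every MII library. The oocyte and blood cell sums were lower in each matured library than in GV. Of 7 cumulus and granulosa cell genes tested, 3 rose and 1 fell in both comparisons. Over all genes, 28.2% rose and 34.2% fell in MII, and 28.0% and 33.4% in ‘damaged’ oocytes. Below the filter, *PTPRC* was at 0.151 CPM in GV, 0.457 in MII and 0.760 in ‘damaged’ oocytes, and *CYP11A1* at 0.0127, 0.315 and 0.137. *HBB* was also higher in both matured groups than in GV. The means of *FSHR*, *INHA*, *INHBA*, *AMH*, *NR5A2*, *HAS2*, *CD68* and *LYZ* went the other way and were lower in both. *TNFAIP6* was higher in MII and lower in ‘damaged’ oocytes. The part of these lists in the results was not tested.

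Within the defined set of BCL2 family genes, *BCL2L10* and *BCL2L1* made up nearly all mRNA in each group. Their balance differed between GV and matured oocytes. *BCL2L10* (ENSSSCG00000004623) lies on chromosome 1 at 119594004 to 119607709 and *BCL2L1* (ENSSSCG00000035357), which encodes BCL-XL, on chromosome 17 at 35366139 to 35415798 (RefSeq, Sscrofa11.1). *BCL2L10* was at 612 TPM ± 62.5 (SD, n = 4) in GV, 1294 ± 140.1 (SD, n = 5) in MII and 1277 ± 135 (SD, n = 5) in ‘damaged’ oocytes. *BCL2L1* was at 187 TPM ± 81.8 (SD, n = 4), 22.9 ± 8.02 (SD, n = 5) and 24.4 ± 7.47 (SD, n = 5) in the same groups. By mean TPM, *BCL2L10* ranked 254 among the 13225 genes tested in GV, 86 in MII and 89 in ‘damaged’ oocytes, whereas *BCL2L1* ranked 873, 3048 and 2971. Other BCL2 family genes, listed separately below, were not part of the set. Of these, *BNIP3L* was at 122 TPM in GV, 35.0 in MII and 35.8 in ‘damaged’ oocytes. *BCL2L14* was at 53.2, 30.3 and 29.7 TPM. Both were below *BCL2L1* in GV and above it in the matured groups, and the others tested were below it in each group.

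**Figure D1:**
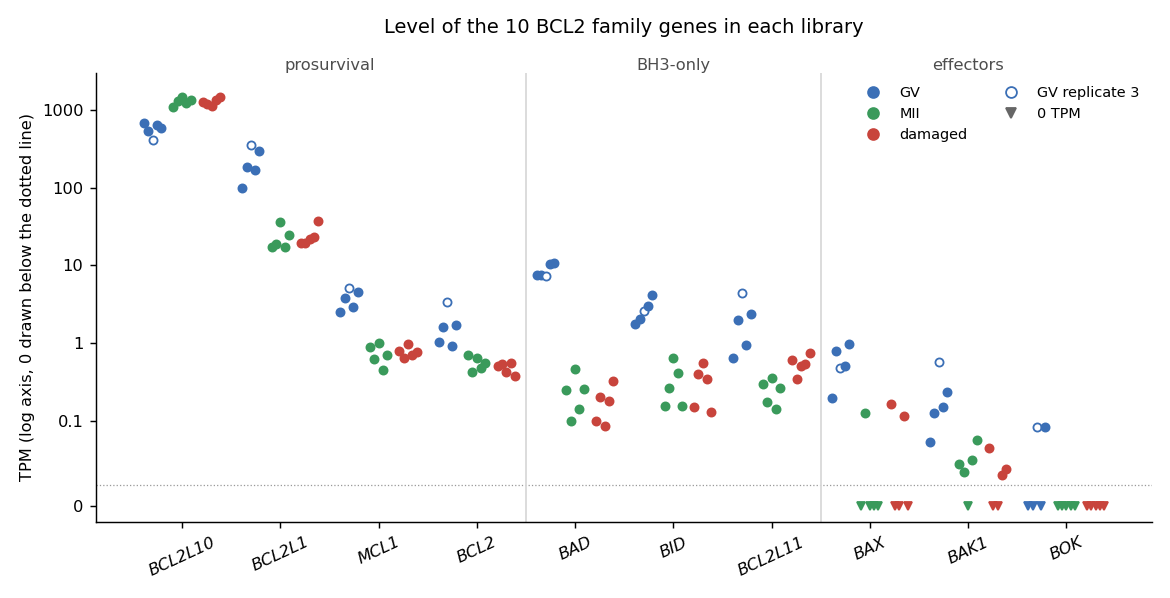
TPM of the 10 BCL2 family genes in each of the 15 libraries, on a log axis and grouped by role, with libraries at 0 drawn as triangles under the dotted line and GV replicate 3 as an open circle. *BCL2L10* lay between 406 and 1477 TPM, and *BAX*, *BAK1* and *BOK* lay below 1 TPM in every library.

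In CPM, *BCL2L10* was at 283, 174, 222 and 164 in GV replicates 1, 2, 4 and 5. It was at 781, 967, 926, 889.8 and 943 in MII replicates 1 to 5 and at 924, 837, 765, 902 and 868 in ‘damaged’ replicates 1 to 5. Each matured library was above each GV library, and MII and ‘damaged’ libraries overlapped. *BCL2L10* rose 4.37-fold in MII (log2 fold change 2.13, SE 0.14, FDR 1.42e-10) and 4.16-fold in ‘damaged’ oocytes (2.06, SE 0.14, FDR 2.37e-10). Both comparisons share the 4 GV libraries. Relative to the median of all genes the log2 fold changes were 2.30 and 2.19 under either scaling, whereas the values themselves fell to 1.21 and 1.18 on library sizes. *BCL2L10* was the only BCL2 family gene that rose. Over all genes tested, 28.2% rose in MII and 28.0% in ‘damaged’ oocytes. As a rising DEG it was among 4.51% and 4.08% of genes, but on library sizes it was no DEG.

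*BCL2L1* had the opposite order. In CPM it was at 92.3, 137, 134 and 190.4 in GV replicates 1, 2, 4 and 5, at 28.3, 31.2, 52.1, 28.5 and 39.6 in MII replicates 1 to 5 and at 32.3, 31.9, 34.0, 36.2 and 50.1 in ‘damaged’ replicates 1 to 5. Each GV library was above each matured library. *BCL2L1* fell 3.85-fold in MII (log2 fold change -1.94, SE 0.21, FDR 7.97e-08) and 3.69-fold in ‘damaged’ oocytes (-1.88, SE 0.21, FDR 1.18e-07). Relative to the median of all genes these were -1.77 and -1.75 under either scaling. Both missed the size of a DEG with TMM factors and passed it on library sizes (-2.86 and -2.76).

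**Figure D2:**
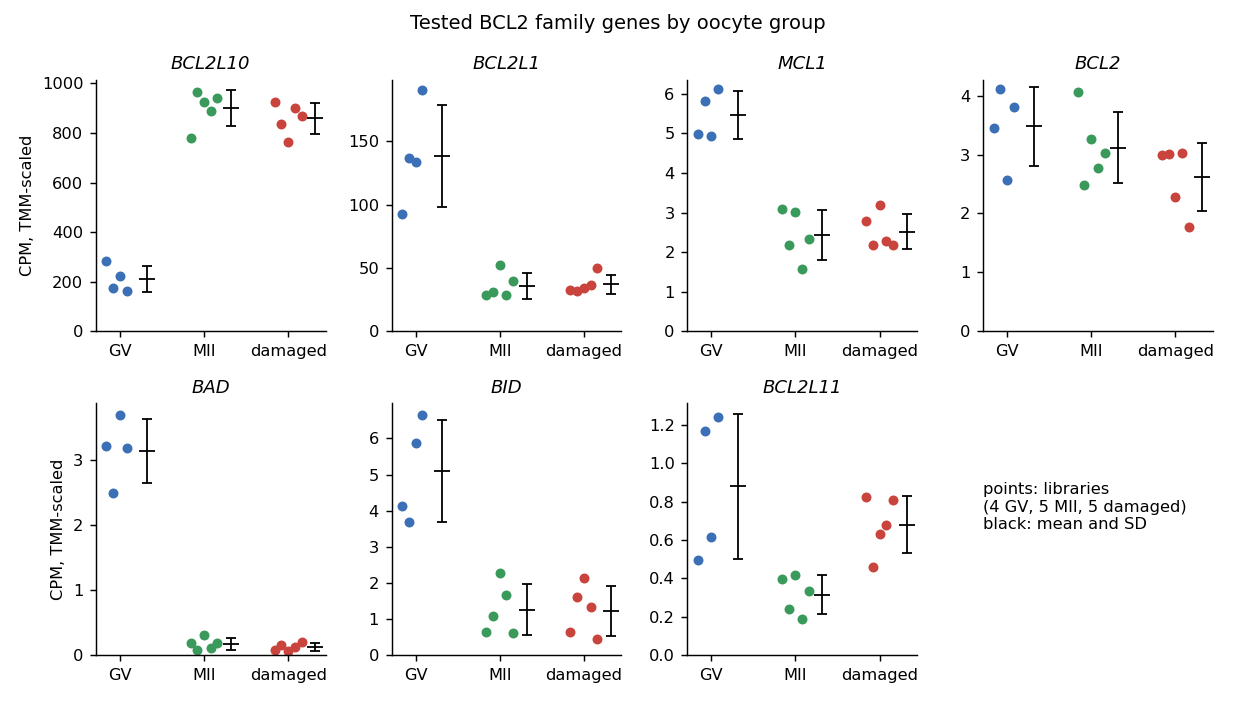
TMM-scaled CPM of the 7 tested BCL2 family genes in 4 GV, 5 MII and 5 ‘damaged’ libraries, each axis starting at 0, with the mean and SD of each group in black. MII and ‘damaged’ libraries overlap in each panel but that of *BCL2L11*.

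Within a library, the ratio of *BCL2L10* to *BCL2L1* does not depend on the scaling between libraries. This ratio was chosen after the values were seen and is given without a test. It was 6.99, 2.90, 3.78 and 1.96 in GV replicates 1, 2, 4 and 5 and 1.14 in GV replicate 3. In MII replicates 1 to 5 it was 63.0, 70.8, 40.5, 71.3 and 54.3, and in ‘damaged’ replicates 1 to 5 it was 65.2, 59.9, 51.4, 56.9 and 39.5. The 5 GV libraries thus spanned a wider relative range than the 10 matured libraries and did not overlap with them. Of the summed TPM of the 10 genes, *BCL2L10* took 64.4 to 86.0% in the 4 GV libraries tested, 97.4 to 98.5% in MII and 97.4 to 98.3% in ‘damaged’ oocytes. *BCL2L1* took 12.3 to 32.8%, 1.38 to 2.40% and 1.51 to 2.47%, and the other 8 genes together took 1.73 to 2.77%, 0.129 to 0.211% and 0.157 to 0.221%. In GV replicate 3 *BCL2L10* took 51.6% and *BCL2L1* 45.4%.

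**Figure D3:**
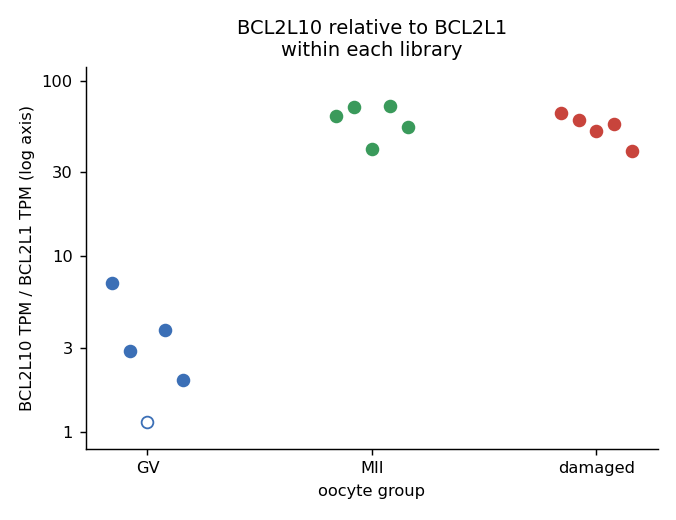
Ratio of *BCL2L10* TPM to *BCL2L1* TPM within each library, on a log axis, for GV, MII and ‘damaged’ oocytes, with GV replicate 3 as an open circle. GV libraries sit between 1.14 and 6.99 and matured libraries between 39.5 and 71.3.

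*MCL1* and *BCL2*, the other prosurvival genes, were far lower and behaved differently from each other. *MCL1* (ENSSSCG00000039314, chromosome 4 at 98562092 to 98567014) encodes a short-lived protein that binds BAK1 and BH3-only proteins. In CPM it was at 4.99, 5.81, 4.93 and 6.13 in GV replicates 1, 2, 4 and 5, at 3.09, 2.18, 3.01, 1.57 and 2.33 in MII replicates 1 to 5 and at 2.78, 2.18, 3.18, 2.28 and 2.18 in ‘damaged’ replicates 1 to 5. The GV libraries were all above the matured ones. *MCL1* fell 2.34-fold in MII (log2 fold change -1.22, SE 0.22, FDR 5e-05) and 2.17-fold in ‘damaged’ oocytes (-1.11, SE 0.22, FDR 0.000124), or by -1.05 and -0.98 relative to the median of all genes.

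*BCL2* (ENSSSCG00000062696, chromosome 1 at 158337403 to 158518214), the founding prosurvival gene, did not pass the test. In CPM it was at 3.46, 4.11, 2.56 and 3.80 in GV replicates 1, 2, 4 and 5, at 4.06, 2.48, 3.26, 2.77 and 3.03 in MII replicates 1 to 5 and at 3.0, 3.01, 2.28, 3.03 and 1.77 in ‘damaged’ replicates 1 to 5. The groups overlapped. The log2 fold change was -0.17 in MII (95% confidence interval -0.64 to 0.31, FDR 0.52) and -0.42 in ‘damaged’ oocytes (-0.90 to 0.06, FDR 0.112). On library sizes *BCL2* passed the test with -1.08 (FDR 0.000402) and -1.28 (FDR 8.96e-05), but relative to the median of all genes it stood at 0.01 in MII under both scalings and at -0.28 and -0.27 in ‘damaged’ oocytes.

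The BH3-only genes *BAD* and *BID* fell in both comparisons with GV. *BCL2L11* fell in MII and did not pass the test in ‘damaged’ oocytes, and the difference between MII and ‘damaged’ oocytes did not pass it either. *BAD* (ENSSSCG00000013033, chromosome 2 at 7831192 to 7842864), whose protein binds BCL2 and BCL-XL and is inactivated by phosphorylation, had the largest difference of the 7 genes. Its estimated counts were 62.9, 48.6, 77.4 and 77.0 in GV replicates 1, 2, 4 and 5. In MII replicates 1 to 5 they were 1.98, 0.988, 3.94, 1.98 and 2.95, and in ‘damaged’ replicates 1 to 5 they were 0.989, 1.98, 0.988, 1.97 and 2.95. The matured libraries thus held about 1 to 4 reads each. The log2 fold change was -4.07 in MII (SE 0.38, FDR 1.31e-08) and -4.42 in ‘damaged’ oocytes (SE 0.40, FDR 9.01e-09). From the counts summed over each group, *BAD* was 19.1-fold higher in GV than in MII (95% counting interval 10.6 to 36.9) and 26.0-fold higher than in ‘damaged’ oocytes (13.3 to 56.8). It passed the filter on low counts through the GV libraries alone. A fall was thus built into its being tested, and its fold changes and FDRs are given as a description.

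*BID* (ENSSSCG00000000769, chromosome 5 at 69849007 to 69874647) links death receptors to the mitochondria once caspase 8 has cut it. In CPM it was at 4.12, 3.69, 5.88 and 6.66 in GV replicates 1, 2, 4 and 5, at 0.625, 1.09, 2.26, 1.67 and 0.607 in MII replicates 1 to 5 and at 0.626, 1.60, 2.13, 1.32 and 0.43 in ‘damaged’ replicates 1 to 5. Each GV library was above each matured library. *BID* fell 4.33-fold in MII (log2 fold change -2.11, SE 0.39, FDR 6.97e-05) and 4.58-fold in ‘damaged’ oocytes (-2.19, SE 0.39, FDR 5.06e-05). The size of the fall depended on how its 4 annotated transcripts were joined: with Kallisto counts simply summed per gene, the log2 fold changes were -0.95 (FDR 0.00475) and -1.24 (FDR 0.000710).

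A long *BID* transcript of 8070 bases (ENSSSCT00000040990.2) took 14.2% ± 4.71 (SD, n = 4) of *BID* TPM in GV, 52.8% ± 34.1 (SD, n = 5) in MII and 53.3% ± 28.0 (SD, n = 5) in ‘damaged’ oocytes. Its estimated counts were 21.0 to 30.5 in GV, 3.59 to 28.1 in MII and 6.69 to 18.7 in ‘damaged’ oocytes. The transcripts of 1978 and 1550 bases together had most of the TPM in GV, with 27.4% ± 15.7 and 58.4% ± 19.2 (SD, n = 4). The shares of the long transcript overlapped between GV and MII (9.56 to 18.5% and 13.4 to 100%) and between MII and ‘damaged’ libraries, and lay higher in ‘damaged’ than in GV libraries without overlap (29.4 to 100%). The transcript of 1978 bases was at 8.80 to 47.1% in GV, at 0 to 32.2% in MII (6.44% ± 14.4, SD, n = 5) and at 0% in each ‘damaged’ library. These are descriptions without a test, and Kallisto's split of so few reads among transcripts is uncertain. No BCL2 family gene had more than 1 transcript past the filter on low counts, so none entered the test of isoform usage.

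*BCL2L11* (ENSSSCG00000060053, chromosome 3 at 45156791 to 45202996) encodes BIM, which binds all prosurvival members and can activate the effectors. Its estimated counts were 9.73, 22.7, 12.9 and 29.9 in GV replicates 1, 2, 4 and 5, 4.21, 3.15, 5.38, 3.53 and 5.38 in MII replicates 1 to 5 and 10.8, 6.07, 10.4, 10.5 and 12 in ‘damaged’ replicates 1 to 5. In CPM these were 0.879 ± 0.378 (SD, n = 4), 0.315 ± 0.0998 (SD, n = 5) and 0.680 ± 0.148 (SD, n = 5), and ‘damaged’ libraries overlapped with GV libraries whereas MII libraries did not. *BCL2L11* fell 2.59-fold in MII (log2 fold change -1.37, SE 0.40, FDR 0.00501). In ‘damaged’ oocytes the log2 fold change was -0.28 (95% confidence interval -1.01 to 0.46, FDR 0.49). The call in MII was lost without GV replicate 2 (FDR 0.0171), GV replicate 5 (FDR 0.0204), MII replicate 2 (FDR 0.013) or MII replicate 4 (FDR 0.0215). Only the GV libraries carried *BCL2L11* past the filter, all 4 of them reaching its level against none in MII and 2 in ‘damaged’ oocytes. A fall in MII was thus built into its being tested, and the call is given as a description. When MII and GV were fitted alone, *BCL2L11* was not among the genes tested.

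**Figure D4:**
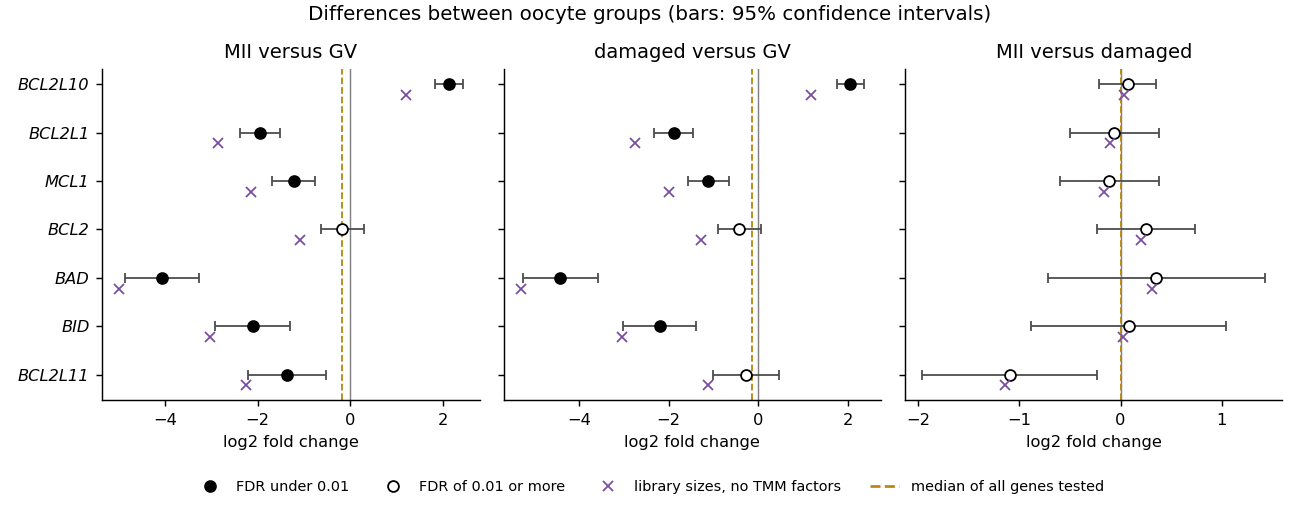
Log2 fold changes of the 7 tested BCL2 family genes with 95% confidence intervals, for MII against GV, ‘damaged’ against GV and MII against ‘damaged’, with values on library sizes as crosses and the median of all genes as a dashed line. *BCL2L10* lies to the right of 0 and *BCL2L1*, *MCL1*, *BAD* and *BID* to the left in both comparisons with GV under either scaling.

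The effectors *BAX*, *BAK1* and *BOK*, without which the pore cannot form, were at or near 0 at the RNA level. *BAX* (ENSSSCG00000061946, chromosome 6 at 54222341 to 54228150) had 1.18, 3.66, 1.22, 2.73 and 4.78 counts in GV replicates 1 to 5. It had 0.893 counts in MII replicate 2 and 0 in the other MII libraries, and 1.17 and 0.890 counts in ‘damaged’ replicates 1 and 4 and 0 in the other ‘damaged’ libraries. *BAX* was thus seen in every GV library and in 3 of the 10 matured libraries, at no more than about 5 reads.

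Summed over the libraries of each group used in the tests, *BAX* had 12.3 counts in GV, 0.893 in MII and 2.06 in ‘damaged’ oocytes. Per TMM-scaled total this was 11.7-fold higher in GV than in MII (95% counting interval 1.51 to 436) and 5.22-fold higher than in ‘damaged’ oocytes (1.16 to 48.0). When no filter on low counts was applied, *BAX* passed the test in MII (log2 fold change -1.81, FDR 0.00834) and not in ‘damaged’ oocytes (-1.52, FDR 0.0247), values that depend on the prior count given to libraries at 0.

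*BAK1* (ENSSSCG00000001516, chromosome 7 at 29808849 to 29815345) had 1.94, 3.55, 9.03, 4.88 and 7.10 counts in GV replicates 1 to 5. It had 0.962, 0.960, 0, 1.92 and 2.87 counts in MII replicates 1 to 5 and 1.92, 0, 0, 0.956 and 0.955 in ‘damaged’ replicates 1 to 5. GV libraries overlapped with MII libraries. In counts, the lowest GV library (1.94) lay just above the highest ‘damaged’ library (1.92). In TMM-scaled CPM these 2 groups overlapped, with 0.0990 in GV replicate 1 and 0.146 in ‘damaged’ replicate 1. Over the summed counts it was 2.21-fold higher in GV than in MII (95% counting interval 0.813 to 5.89) and 3.96-fold higher than in ‘damaged’ oocytes (1.21 to 15.1). It passed no test without the filter (FDR 0.179 and 0.0299). *BOK* (ENSSSCG00000032684, chromosome 15 at 140171134 to 140184126) had 1.03 counts in GV replicate 3, 2.03 in GV replicate 5 and 0 in the other 13 libraries.

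A count of 0 allows a level of up to 0.127 to 0.251 CPM of library size in the 14 libraries tested and up to 0.469 CPM in GV replicate 3, for counting error only, so the effectors were not shown to be absent. *BAX* was at 0 in 7 of the 15 libraries, *BAK1* in 3 and *BOK* in 13. For that reason the planned ratios of prosurvival genes to *BAX* could not be computed in 7 libraries and are not given. The summed TPM of the 3 effectors was 0.253 to 1.28 in GV, 0 to 0.149 in MII and 0 to 0.210 in ‘damaged’ oocytes. The 4 prosurvival genes together were at 736 to 883 TPM in GV, 1106 to 1498 in MII and 1159 to 1515 in ‘damaged’ oocytes, mostly as *BCL2L10*. The 3 BH3-only genes together were at 9.93 to 17.5 TPM in GV, 0.542 to 1.46 in MII and 0.855 to 1.20 in ‘damaged’ oocytes.

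Against GV, of the 7 BCL2 family genes tested 1 rose and 5 fell in MII, and 1 rose and 4 fell in ‘damaged’ oocytes. Of all 13225 genes tested, 28.2% rose and 34.2% fell in MII, and 28.0% rose and 33.4% fell in ‘damaged’ oocytes. *BAD* and *BID* were falling DEGs in both comparisons, where 17.1% and 16.4% of all genes were. For 6 of the 7 genes tested, GV and MII libraries did not overlap in CPM, against 27.0% of all genes with non-overlapping libraries in the rising and 32.9% in the falling direction. GV and ‘damaged’ libraries did not overlap for 5 of the 7, against 26.6% and 31.8%. *BAD* and *BCL2L11* were tested only because GV libraries were high, so these counts are a description.

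Between MII and ‘damaged’ oocytes, none of the BCL2 family genes passed the test. Of all 13225 genes, 0% passed with limma-voom, with edgeR's quasi-likelihood test and with DESeq2, and 194 genes (1.47%) had an unadjusted p under 0.05 with limma-voom. Of the 7 tested BCL2 family genes, 1 (*BCL2L11*) had an unadjusted p under 0.05 with each of these tools. The share of 1.47% is lower than that expected when no gene differs. With replicate number as a block in limma-voom, 353 genes had an unadjusted p under 0.05. The lowest FDR over all genes was then 0.0236, so no gene passed. The difference was bounded most closely for *BCL2L10*, with a log2 fold change of 0.07 in MII against ‘damaged’ oocytes and a 95% confidence interval of -0.21 to 0.35. It was -0.06 for *BCL2L1* (-0.50 to 0.38), -0.11 for *MCL1* (-0.60 to 0.38) and 0.25 for *BCL2* (-0.23 to 0.74). It was 0.08 for the BH3-only gene *BID* (-0.88 to 1.04) and 0.35 for *BAD* (-0.72 to 1.43), the widest intervals of the 7 genes.

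*BCL2L11* was the BCL2 family gene with the largest difference between MII and ‘damaged’ oocytes. The 5 MII libraries were at 0.398, 0.239, 0.417, 0.187 and 0.336 CPM and the 5 ‘damaged’ libraries at 0.823, 0.461, 0.632, 0.676 and 0.809 CPM, so the groups did not overlap. Over all genes, MII lay below ‘damaged’ libraries without overlap in 0.174% and above them in 0.0983%. The log2 fold change was -1.09 (95% confidence interval -1.96 to -0.23), with an unadjusted limma p of 0.0161 and an FDR of 0.999988, so it did not hold after adjustment over all genes. Leaving out 1 library at a time gave -1.21 to -0.90. These values rest on about 3 to 12 reads per library.

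The other genes of the intrinsic and extrinsic apoptosis pathways were examined in 6 lists with 62 genes, of which 49 had a known symbol and 44 passed the filter. The counts of rises and falls stand beside 28.2% and 34.2% of all genes in MII and 28.0% and 33.4% in ‘damaged’ oocytes, and on library sizes these shares and the list medians shift towards falls. *CASP9*, *HTRA2*, *ENDOG*, *FADD* and *TNFRSF1A* passed the filter through the GV libraries alone, with 0 matured libraries at its level of 0.628 CPM, so a fall was built into their being tested and their levels are given as a description. Among the other BCL2 family genes, 0 of 7 tested rose and 2 fell in MII and in ‘damaged’ oocytes, with a list median log2 fold change of 0.09 and 0.04. The 0 rises were the same in number with limma-voom, edgeR and DESeq2, and 1 gene (*BCL2L15*, named after its values were seen) had an unadjusted p under 0.05 for a rise, in ‘damaged’ oocytes. On library sizes the list medians were -0.81 and -0.82. *BMF*, a BH3-only gene, fell from 11.4 CPM ± 1.56 (SD, n = 4) in GV to 3.94 ± 0.864 (SD, n = 5) in MII and 3.80 ± 0.166 (SD, n = 5) in ‘damaged’ oocytes (log2 fold changes -1.55 and -1.56, FDR 3.45e-07 and 2.94e-07). *BNIP3L*, a mitophagy receptor, fell from 104 to 60.2 and 59.9 CPM (log2 fold change -0.78 in each, FDR 0.000710 and 0.000754).

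Of 9 tested genes of the apoptosome and caspases, 4 rose and 3 fell in both comparisons with GV, and the list medians were 0.54 in MII and 0.50 in ‘damaged’ oocytes. None of these rises passed on library sizes, where *CASP6* turned sign (0.83 to -0.08 in MII) and the list median was -0.38 in both comparisons. *CASP10*, an initiator caspase of death receptors, rose from 8.57 to 17.7 CPM in MII (log2 fold change 1.06, FDR 2.75e-05). On library sizes its value was 0.14 (FDR 0.499). *CASP2* fell from 6.75 to 2.91 CPM (-1.22, FDR 0.000260). *CASP9*, the caspase of the apoptosome and one of the 3 falls, was tested through GV alone and was at 1.41 CPM in GV and 0.427 in MII.

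**Figure D5:**
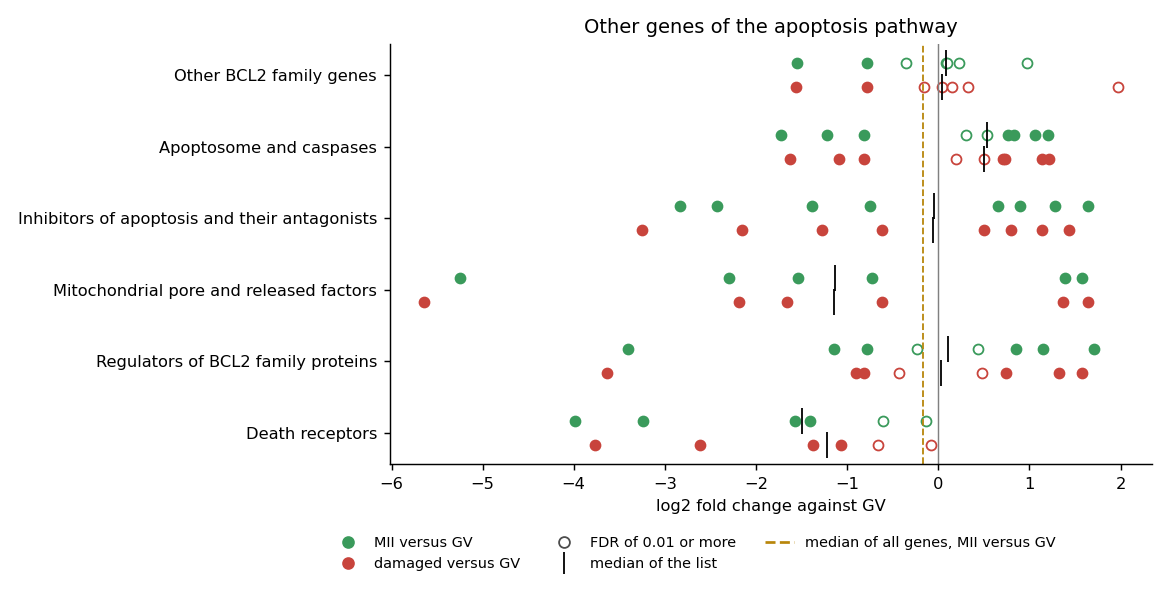
Log2 fold changes against GV of 44 other apoptosis genes in 6 lists, for MII and ‘damaged’ oocytes, with open points for an FDR of 0.01 or more, black ticks for list medians and a dashed line for the median of all genes between MII and GV, all with TMM factors. The tested death receptor genes lie left of 0 and the other lists spread to both sides.

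Inhibitors of apoptosis and their antagonists split by direction, with 4 rising and 4 falling of 8 tested in both comparisons. The inhibitors *BIRC6* and *XIAP*, which bind caspases, rose from 53.7 to 171 CPM (log2 fold change 1.64, FDR 4.5e-08) and from 20.4 to 49.6 CPM (1.28, FDR 1.72e-06) in MII. On library sizes *BIRC6* still passed the test (0.72, FDR 0.00104) and *XIAP* did not (0.37, FDR 0.0984). The other 2 rising inhibitors, *BIRC2* and *BIRC3*, turned from 0.66 and 0.90 to -0.25 and -0.01 in MII, and *BIRC2* turned in ‘damaged’ oocytes from a rise of 0.50 (FDR 0.00161) to a fall of -0.37 (FDR 0.00855). *DIABLO* and *HTRA2* encode mitochondrial proteins that relieve caspases of these inhibitors once released. *DIABLO* fell from 11.9 to 2.36 CPM (-2.43, FDR 2.9e-08). *HTRA2*, 1 of the 4 falls and tested through GV alone, was at 1.13 CPM in GV, 0.156 in MII and 0.124 in ‘damaged’ oocytes.

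Among mitochondrial pore genes and released factors, 2 of 6 tested rose and 4 fell in both comparisons, with list medians of -1.13 in MII and -1.14 in ‘damaged’ oocytes (-2.05 and -2.01 on library sizes). *VDAC1*, a channel of the outer membrane, rose from 77.0 to 228 CPM (log2 fold change 1.58, FDR 1.65e-08) and *MFF*, a mitochondrial fission factor, from 106 to 281 CPM (1.39, FDR 3.95e-08), and both also passed on library sizes. *PPIF*, cyclophilin D of the inner membrane, fell from 48.2 to 10.6 CPM (-2.30, FDR 6.76e-08). *ENDOG*, a nuclease of mitochondria and the 1 fall tested through GV alone, had 146 counts summed over the GV libraries, 1.09 over the MII libraries and 0 over the ‘damaged’ libraries. It was 114-fold higher in GV than in MII (95% counting interval 21.9 to 4934) and, with the floor of 3 counts over the group, at least 42.3-fold higher than in ‘damaged’ oocytes.

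Of 8 tested regulators of BCL2 family proteins, 3 rose and 3 fell in both comparisons. *YWHAZ*, a 14-3-3 protein that holds phosphorylated BAD in the cytosol, rose from 41.1 to 136 CPM in MII (log2 fold change 1.71, FDR 2.14e-08). The kinase *PIM1* rose from 11 to 25.4 CPM (1.15, FDR 0.00836), which did not pass on library sizes (0.25, FDR 0.556), and the third rise, of *USP9X*, turned from 0.85 to -0.07. *GSK3B*, a kinase that marks MCL1 for degradation, fell from 40.2 to 3.92 CPM (-3.40, FDR 2.75e-11), and *FOXO3*, a transcription factor known to activate *BCL2L11*, fell from 10.1 to 4.82 CPM (-1.14, FDR 0.000413). Of 6 tested death receptor genes, 0 rose and 4 fell in both comparisons, with list medians of -1.49 and -1.23 and with no rise at an unadjusted p under 0.05 by limma-voom, edgeR or DESeq2. On library sizes 6 of the 6 fell, with medians of -2.39 and -2.10. Of the 4 falls, 2 were of genes tested through GV alone: *TNFRSF1A* was at 2.45 CPM in GV, 0.130 in MII and 0.160 in ‘damaged’ oocytes, and the adaptor *FADD* at 1.28, 0.203 and 0.188 CPM. Of the 44 genes, 0 passed the test between MII and ‘damaged’ oocytes and 0 had an unadjusted p under 0.05, with limma-voom, edgeR and DESeq2 alike.

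The genes whose profile over the 14 libraries was most like that of *BCL2L10* were found by the root mean square difference of centred log2 CPM values. They were *RPGRIP1L* (0.10), *PPIL4* (0.11), *NEK11* (0.11), *CFAP97* (0.12) and *MYNN* (0.12), against a median of 1.11 over 11017 genes with a symbol. Their log2 fold changes in MII lay between 1.99 and 2.28 and in ‘damaged’ oocytes between 1.86 and 2.20. The 14 points are 4 GV and 10 matured libraries, so this likeness describes mainly the step between them.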

How the data were processed

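Oocyte RNA was amplified from 15 libraries (5 GV, 5 MII and 5 ‘damaged’) with the oligo(dT)-primed SMART-Seq HT kit and sequenced by the authors as single reads. The authors made estimated counts and TPM per transcript with Kallisto 0.43 on Sscrofa11.1, per the labels and file headers, with no scaling between libraries. They also deposited estimated counts per gene made with tximport (lengthScaledTPM), in which transcript length enters the count.

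In the gene table, the sum of 8 of 15 columns equalled that of the transcript file of the same name, and these 8 were used. For the remaining 7 the sum equalled that of a differently labelled library, so they were set aside. Labels were taken from the transcript files, and which of the contradicting labels is right was not tested. Transcripts were assigned to genes by matching them to the 8 columns, which placed 18721 of 18954 genes with a count and 99.964 to 99.998% of the counts of each library with a largest deviation of 0.00088% from deposited counts of 10 or more. The same formula then gave the gene counts of the 15 libraries. On simulated data 99.7% of 12717 genes were recovered. The symbol of *BCL2L10* was paired with its identifier in a supplementary table of the study, and the others came from a gene name table. Positions are those of RefSeq, and no sequences were used here.

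Counts were tested with limma 3.58.1 (voom, TMM factors) after filterByExpr of edgeR 4.0.16 (minimum count 10, minimum total 15) in R 4.3.3, with all 3 groups and without GV replicate 3. As alternatives, library sizes, RLE factors, edgeR's quasi-likelihood test, DESeq2 1.42.0, other filters, all 5 GV libraries, each library left out, the 2 groups alone, a replicate block, summed Kallisto counts and library weights were tried. On simulated counts of 13225 genes for MII against GV, the test found 100 of 100 genes shifted by 3 on the log2 scale and 65 of 100 shifted by 1. The shifted genes were drawn only from genes above a set mean count. *BCL2L11*, *BID* and *BAD* lay below it, so these rates do not cover them. No pair of libraries of a group agreed within counting error (chi-square per gene at least 14.7 over 30 pairs). Intervals from summed counts are exact 95% intervals and, like the limits for a count of 0 (3 counts), cover counting error only, since amplified reads are not independent molecules.

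The members and lists were chosen with earlier results of these data known. Named are all members, from each list the 2 largest rises and the 2 largest falls in MII among genes that passed the test, and the 5 genes nearest in profile to the member with the highest TPM. Some genes of the lists are counted but not reported here by name. Tables and figures used Python 3.11.15.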

Additional observations from a re-analysis of the deposited data

Results flagged for a closer look

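In 24 checks of a group for a library apart from the others, by Dixon's test, *BCL2L1* in ‘damaged’ oocytes stood out. ‘Damaged’ replicate 5 was at 50.1 CPM and the other 4 libraries at 31.9 to 36.2 CPM, a gap of 0.765 of the range against a critical value of 0.710. Chance flags about 1 in 20 such groups. Without this library, the log2 fold change between MII and ‘damaged’ oocytes was 0.06, and *BCL2L1* still fell against GV.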

How the results depend on the processing

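Of the log2 fold changes of single genes under the alternatives, 164 of 169 for MII against GV and 169 of 170 for ‘damaged’ against GV kept their direction and their side of the threshold. With a filter of 10 CPM only *BCL2L10* and *BCL2L1* were tested, and the number of genes that passed was 2 in both comparisons, against 6 and 5. It was 5 to 6 and 5 when each library was left out in turn, and 0 between MII and ‘damaged’ oocytes in every setting tried. Between MII and ‘damaged’ oocytes, 8 of 168 log2 fold changes, none past the threshold, turned: *BCL2L1* (-0.20 to 0.06 over all libraries left out) without MII replicate 1 (0.01), MII replicate 4 (0.02) or ‘damaged’ replicate 5 (0.06), *MCL1* (-0.20 to 0.06) without MII replicate 4 (0.06), and *BID* (-0.23 to 0.35) without MII replicate 3 (-0.15), MII replicate 4 (-0.10), ‘damaged’ replicate 1 (-0.08) or ‘damaged’ replicate 5 (-0.23). The causes were not tested. On library sizes, rises made up 16% of all calls in MII and 16.6% in ‘damaged’ oocytes, against 45.2% and 45.6% with TMM factors. Without a filter 7 genes passed in MII, *BAX* being added. Same-numbered libraries correlated from -0.10 to 0.32 (median 0.07, against -0.01 for other pairs; over 0.1 in 3 of 13 pairs), and 9 of 14 libraries correlated best with their own number, a hint of shared collections. The labels do not tie a number to a collection and not every pair was over 0.1, so the block was kept as an alternative. With the replicate block 6, 5 and 0 genes passed in the 3 comparisons. No isoform test could be run for the family. Depth limits *BAX*, *BAK1*, *BOK*, *BAD* and *BCL2L11*, with at most 12 reads in a matured library.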

Other observations

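GV replicate 3, the shallowest library, was left out of the main comparisons. Its *BCL2L1* level of 357 TPM was above those of the other GV libraries (97.9 to 296 TPM) and its *BCL2L10* level of 406 TPM below theirs (543 to 685 TPM). *BCL2* was at 3.43 TPM against 0.923 to 1.69 TPM, *BCL2L11* at 4.37 against 0.650 to 2.37 TPM and *BAK1* at 0.574 against 0.0535 to 0.233 TPM. *BAD*, at 7.38 TPM, was close to the lowest of the others (7.50 to 10.9 TPM). With all 5 GV libraries in the fit, 6 genes passed the test in MII and 5 in ‘damaged’ oocytes.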
